A study of Mus musculus with 12 samples.

Results

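The genes described here are the microglial receptor gene Trem2 and 9 genes for proteins that carry or restrain its signal: the transmembrane adaptors Tyrobp and Hcst, the kinases Syk and Lyn, the phospholipase Plcg2, the exchange factor Vav1, and the inhibitors Inpp5d, Ptpn6 and Dok3. They were chosen by name, and all 10 matched 1 identifier each among the 56980 genes of the count table. RNA from whole hippocampus was sequenced in bulk for 12 male mice, with a library for each animal. All of them had App NL-G-F, a knock-in that puts a humanised and mutated amyloid precursor sequence into the mouse's own App gene. In 6 of the mice Trem2 was knocked out as well. The 4 groups of 3 libraries were App knock-in with Trem2 at 3 and at 9 months of age (App-KI) and App knock-in without Trem2 at 3 and at 9 months (Trem2-KO). Mice with an unmodified App gene were not analysed here, and age and amyloid load therefore cannot be told apart. The labels do not say which part of Trem2 was removed, nor that the knockout was limited to a cell type.

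TREM2 sits in the surface membrane of microglia, the macrophages of the brain, and binds lipids, lipoproteins and amyloid-β. It has almost no tail inside the cell and signals through TYROBP (DAP12), whose ITAM, a tyrosine motif, is phosphorylated by kinases of the SRC family such as LYN and then recruits the kinase SYK. SYK in turn activates PLCG2, which raises calcium, VAV1, which remodels the actin skeleton, and PI3-kinase, to which the second adaptor HCST (DAP10) also couples. INPP5D (SHIP1), a lipid phosphatase, PTPN6 (SHP-1), a tyrosine phosphatase, and the docking adaptor DOK3 dampen the signal. Human variants of TREM2, PLCG2 and INPP5D are linked to the risk of Alzheimer's disease.

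Promoter sequences are shown for 4 members, chosen with their values and motifs known: Trem2, the deleted gene, Inpp5d and Vav1, which were lower without Trem2 at 9 months and have the motif below, and Dok3, which was not called for age. Ptpn6 was also lower at 9 months, and its window, not shown, does not have the motif. Each sequence runs 5′ to 3′ over the 250 bases before the start of transcription (RefSeq, GRCm38.p6). Capitals mark GAGGAA on either strand, a form of the site of PU.1, an ETS factor of myeloid cells. The shorter core GGAA, which ETS factors share, is not marked, and it also occurs in the windows of Dok3 and Ptpn6.
Trem2 (chr17:48346151-48346400, plus strand): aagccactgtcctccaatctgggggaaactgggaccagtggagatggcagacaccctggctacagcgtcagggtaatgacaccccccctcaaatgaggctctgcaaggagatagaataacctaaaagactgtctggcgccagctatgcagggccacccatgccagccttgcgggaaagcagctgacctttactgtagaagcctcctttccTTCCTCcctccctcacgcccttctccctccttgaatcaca
Vav1 (chr17:57278850-57279099, plus strand): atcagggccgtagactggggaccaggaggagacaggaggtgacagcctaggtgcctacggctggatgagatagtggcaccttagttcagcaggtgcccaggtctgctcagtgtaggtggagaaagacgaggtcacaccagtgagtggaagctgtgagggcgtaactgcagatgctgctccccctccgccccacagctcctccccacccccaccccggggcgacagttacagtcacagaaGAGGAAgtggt
Inpp5d (chr1:87620062-87620311, plus strand): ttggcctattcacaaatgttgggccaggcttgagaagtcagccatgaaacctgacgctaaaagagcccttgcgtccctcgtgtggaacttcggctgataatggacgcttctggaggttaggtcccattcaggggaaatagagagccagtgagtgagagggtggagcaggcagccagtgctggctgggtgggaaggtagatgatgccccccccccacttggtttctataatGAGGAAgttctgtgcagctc
Dok3 (chr13:55528539-55528788, minus strand): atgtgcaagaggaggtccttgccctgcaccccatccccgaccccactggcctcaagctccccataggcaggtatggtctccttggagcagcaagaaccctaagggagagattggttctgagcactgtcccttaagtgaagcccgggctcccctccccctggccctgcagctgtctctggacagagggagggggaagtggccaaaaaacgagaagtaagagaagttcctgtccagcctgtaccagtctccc
The table of promoters had entries for 8 of the 10 members, in 9 windows because Syk has 2 starts. GAGGAA was present in 4 of these windows, those of Trem2, Vav1, Inpp5d and 1 of the 2 of Syk, against 23.3% of all 32851 promoters of the same length. In the Trem2 window it lay on the opposite strand, 40 to 35 bases before the start. In those of Vav1 and Inpp5d it lay on the gene's own strand, at 11 to 6 and at 20 to 15 bases before the start. The longer GAGGAAGT, which contains GAGGAA, was found in the Vav1 and Inpp5d windows, against 2.44% of promoters. The E-box CACGTG was found for Plcg2, against 6.02% of promoters. The TATA box TATAAA was in none of the 9 windows, against 12.4% of promoters. These counts describe letters only, both strands were searched, and the data hold no measurement of factor binding.

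Library totals ran from 14627892 to 24594655 counts, so that a count of 0 allows up to 0.122 to 0.205 CPM (counts scaled to a common library size). Only counting error enters this limit, and reads that carry no molecular identifier are not independent molecules. All 12 pairs of libraries within a group differed by more than counting noise, with a chi-square per degree of freedom of 3.04 to 16.98, and none was treated as a duplicate. The summed level of 20 genes that mark microglia was 545.6 to 585.5 CPM with Trem2 and 542.1 to 570.6 CPM in the knockout at 3 months, and 1455 to 1548 CPM and 857.8 to 921.6 CPM at 9 months. In bulk tissue, fewer microglia and less RNA per microglial cell cannot be told apart. The sum of 10 genes of meningeal fibroblasts was 257.1 to 373.9 CPM in the Trem2-KO libraries of 9 months and at most 232.1 CPM in any other library, and 7 border macrophage genes summed to 22.3 to 32.3 CPM in that group and to at most 21.9 CPM elsewhere. The same group stood apart in its 6 endothelial markers, at 246.6 to 260.7 CPM against at most 220.3 CPM elsewhere, and in 8 of monocytes and neutrophils, at 1.87 to 3.02 CPM against at most 1.44 CPM. Its 10 choroid plexus markers summed to 7767, 7576 and 363.2 CPM, and to 339.8 to 4206 CPM in the other libraries. Markers of T and NK cells summed to at most 3.06 CPM in every library. The 6 B cell markers summed to 6.74 to 11.7 CPM at 3 months and to 19.99 to 42.2 CPM at 9 months. Nearly all of this was Ighm, while Ms4a1 and Pax5 were at or below 0.0883 CPM throughout. A fit with the meningeal score is given below, and the part of border macrophages, endothelium, monocytes and Ighm-bearing cells in the results was not tested.

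Trem2 itself was read at 10.4, 8.05 and 9.17 CPM in the App-KI libraries of 3 months and at 55.6, 52.6 and 49.8 CPM in those of 9 months. In the knockout it was read at 1.85, 1.93 and 2.17 CPM at 3 months and at 3.62, 3.83 and 3.77 CPM at 9 months. Every knockout library lay below every App-KI library, and in both genotypes every library of 9 months lay above every library of 3 months. The remaining reads in the knockout numbered 27 to 82 per library, and a table of counts per gene does not show from which part of the gene they came. In edgeR's quasi-likelihood test the log2 difference between Trem2-KO and App-KI was -2.21 ± 0.13 (SE) at 3 months (adjusted p = 2.84e-09), 4.62-fold lower, and -3.81 ± 0.11 at 9 months (adjusted p = 4.12e-15), 14.1-fold lower. With age Trem2 rose by 2.51 ± 0.10 in App-KI (5.70-fold, adjusted p = 2.79e-13). The residual reads in Trem2-KO rose by 0.90 ± 0.14 (1.87-fold, adjusted p = 3.95e-04), and the difference between these age changes, -1.61 ± 0.18, passed the same test (adjusted p = 7.96e-05).

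**Figure D1:**
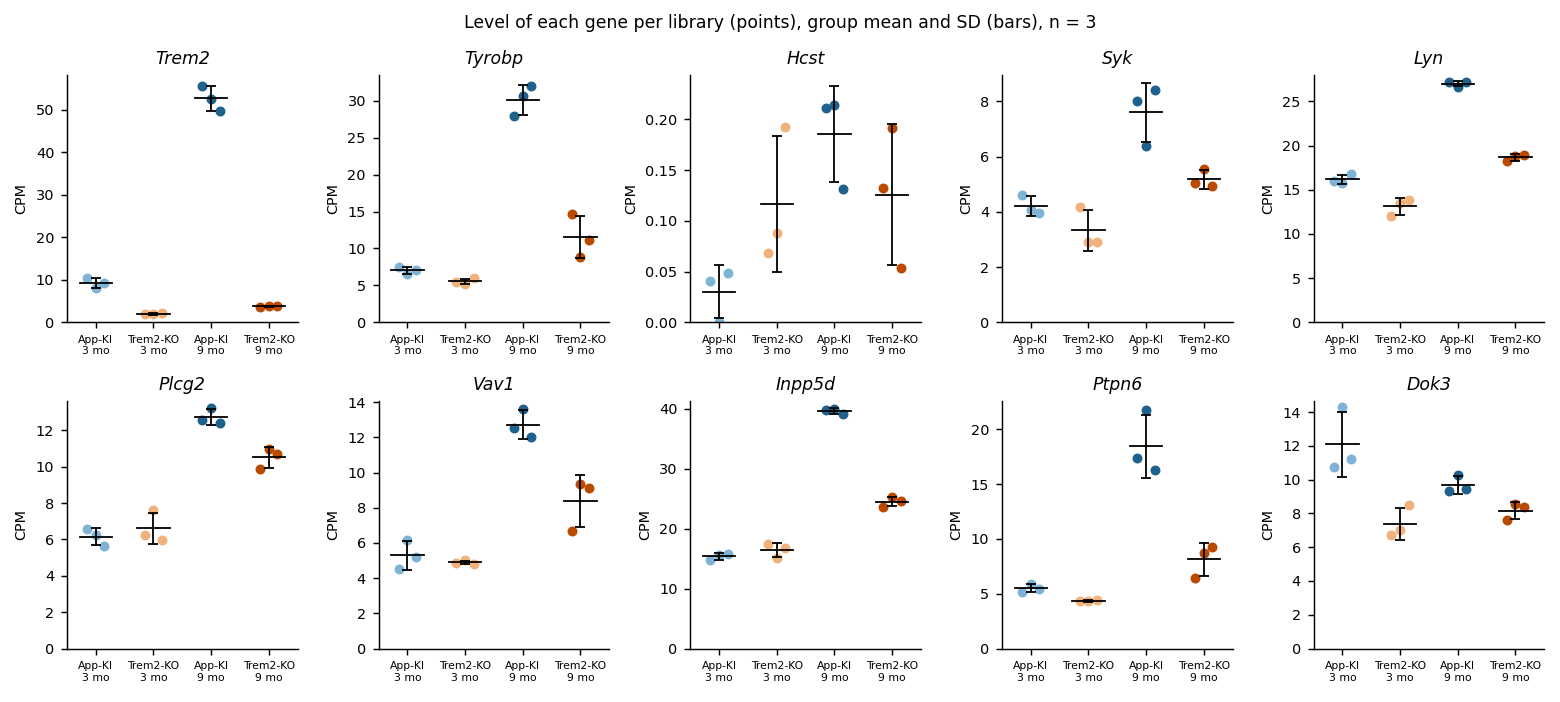
Level of each of the 10 genes in CPM (vertical axes, linear, from 0) in each of the 12 libraries (points), with the group mean (line) and SD (bars) of 3 libraries. Trem2 reached 49.8 to 55.6 CPM only in App-KI at 9 months, most other genes were also highest there, Hcst stayed under 0.22 CPM in every library and Dok3 was highest in App-KI at 3 months.

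Of the adaptors, Tyrobp carried nearly all the reads. At 3 months Tyrobp was at 7.50, 6.51 and 7.12 CPM with Trem2 and at 5.48, 5.23 and 5.93 CPM without it. At 9 months it was at 27.9, 30.6 and 31.9 CPM with Trem2 and at 14.6, 8.87 and 11.1 CPM in the knockout, where replicate 1 was well above the other 2 libraries. The genotypes did not overlap at either age. Tyrobp did not pass the test at 3 months (-0.35 ± 0.15, adjusted p = 0.383 by edgeR) and was 2.61-fold lower without Trem2 at 9 months (-1.38 ± 0.13, adjusted p = 1.59e-06). Its rise with age was 2.09 ± 0.14 in App-KI (4.27-fold, adjusted p = 1.39e-09) and 1.06 ± 0.15 in Trem2-KO (2.08-fold, adjusted p = 1.25e-04). The difference between the rises, -1.03 ± 0.20, was called with an adjusted p of 0.0247 in edgeR. That call was lost in 8 of the 12 fits that left out 1 library (-1.24 to -0.87 over all 12). It was kept only without replicate 1 of App-KI at 3 or 9 months or replicate 1 or 2 of Trem2-KO at 9 months, and was lost in limma-voom (-1.05, adjusted p = 0.0516).

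Hcst had 0 to 4 reads in each library, at most 0.215 CPM, and did not pass the filter on low counts. It had 2 to 4 reads in the App-KI libraries of 9 months and 0 or 1 in those of 3 months. In the knockout it had 1 to 4 reads per library at both ages. At 3 months the knockout libraries were all above those of App-KI, at 0.069 to 0.193 CPM against at most 0.049 CPM. No fold change is given, since these levels lie close to the limit that a count of 0 allows. Hcst and Tyrobp are neighbouring genes, and whether reads were counted by strand is not given in the sources used here.

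The kinases Syk and Lyn rose with age in both genotypes, and Lyn was lower without Trem2 at 9 months. Lyn was at 15.9, 15.8 and 16.8 CPM with Trem2 and at 12.1, 13.5 and 13.8 CPM without it at 3 months. At 9 months it was at 27.2, 26.7 and 27.2 CPM with Trem2 and at 18.3, 18.8 and 19.0 CPM in the knockout. All 4 groups of Lyn values were separate, and the replicates of 9 months were close to each other. The difference at 9 months was -0.53 ± 0.08 (1.44-fold lower, adjusted p = 6.96e-04 by edgeR), and that at 3 months, -0.30 ± 0.09, did not pass (adjusted p = 0.132). Lyn rose with age by 0.74 ± 0.08 in App-KI (adjusted p = 3.80e-06) and by 0.51 ± 0.09 in Trem2-KO (adjusted p = 8.49e-04).

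Syk, the kinase that docks on phosphorylated TYROBP, had levels of 3.95 to 4.61 CPM with Trem2 and 2.89 to 4.18 CPM in the knockout at 3 months, which overlapped. At 9 months it had 6.38 to 8.40 CPM with Trem2 and 4.93 to 5.56 CPM in the knockout, without overlap. The difference at 9 months, -0.55 ± 0.16, did not pass the test (adjusted p = 0.0841 by edgeR). Syk rose with age in App-KI by 0.85 ± 0.16 (adjusted p = 0.00207) and in Trem2-KO by 0.66 ± 0.17 (adjusted p = 0.0197). The second of these calls was lost without replicate 2 or 3 of Trem2-KO at 3 months or replicate 2 at 9 months (0.57, 0.57 and 0.60), and in a fit of those 2 groups alone (0.65, adjusted p = 0.0522).

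Downstream of SYK, Plcg2 and Vav1 both rose with age in both genotypes. Plcg2 was at 6.56, 6.22 and 5.66 CPM with Trem2 and 6.24, 7.60 and 5.98 CPM in the knockout at 3 months, with overlap. At 9 months Plcg2 was at 12.6, 13.2 and 12.4 CPM with Trem2 and 9.88, 10.97 and 10.7 CPM in the knockout. The libraries of 9 months were separate, yet the difference of -0.28 ± 0.12 did not pass (adjusted p = 0.287 by edgeR). Vav1 was at 4.52 to 6.17 CPM in App-KI and 4.82 to 5.01 CPM in the knockout at 3 months, with overlap. At 9 months its 3 App-KI libraries had 12.7 ± 0.8 CPM (SD, n = 3) and the knockout libraries 6.71, 9.34 and 9.12 CPM, all below every App-KI library. Its difference at 9 months, -0.60 ± 0.14 (1.52-fold lower), was called with an adjusted p of 0.0231 in edgeR. The call was lost without any 1 of the 3 App-KI libraries of 9 months or replicate 1 of Trem2-KO at 9 months (values from -0.64 to -0.46). The rises with age were 1.05 ± 0.12 in App-KI and 0.67 ± 0.12 in Trem2-KO for Plcg2, and 1.27 ± 0.14 and 0.77 ± 0.15 for Vav1, and all 4 passed.

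Among the inhibitors, Inpp5d and Ptpn6 rose with age in both genotypes and were lower without Trem2 at 9 months, while Dok3 was lower without Trem2 at 3 months and was not called for age. Inpp5d was at 14.7, 15.6 and 15.8 CPM with Trem2 and at 17.4, 15.1 and 16.8 CPM in the knockout at 3 months, with overlap. At 9 months it was at 39.8, 39.9 and 39.1 CPM with Trem2 and at 23.7, 25.2 and 24.7 CPM in the knockout. These last 2 groups were far apart relative to the spread within each: the difference was -0.69 ± 0.08 (1.62-fold lower, adjusted p = 8.55e-06 by edgeR). The rise with age was 1.37 ± 0.08 in App-KI and 0.58 ± 0.08 in Trem2-KO, and the difference between the rises, -0.79 ± 0.11, passed the test (adjusted p = 0.00122). Leaving out any 1 library kept that difference between -0.84 and -0.75, with the call kept in all 12 fits.

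Ptpn6 had 5.14, 5.88 and 5.46 CPM with Trem2 and 4.32, 4.31 and 4.43 CPM in the knockout at 3 months. At 9 months it had 17.4, 21.7 and 16.3 CPM with Trem2 and 6.44, 8.67 and 9.28 CPM in the knockout. The genotypes were separate at both ages, and each spread was wider at 9 months. Ptpn6 was 2.28-fold lower without Trem2 at 9 months (-1.19 ± 0.14, adjusted p = 1.67e-05 by edgeR) and rose with age by 1.75 ± 0.14 in App-KI and by 0.90 ± 0.15 in Trem2-KO. The difference between those rises, -0.86 ± 0.21, did not pass (adjusted p = 0.132), although it passed when genes of low counts were kept in the fit (-0.85, adjusted p = 0.0103).

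Dok3 was at 10.8, 14.3 and 11.2 CPM with Trem2 and at 6.72, 6.99 and 8.48 CPM in the knockout at 3 months. At 9 months it was at 9.33, 10.3 and 9.45 CPM with Trem2 and at 7.59, 8.53 and 8.38 CPM in the knockout. Its App-KI libraries were above its Trem2-KO libraries at both ages, and within App-KI all 3 libraries of 9 months were below those of 3 months. The difference between genotypes was -0.70 ± 0.13 at 3 months (1.62-fold lower, adjusted p = 0.0158 by edgeR). This call was lost without replicate 2 of App-KI at 3 months, the highest library, or without replicate 1 or 2 of Trem2-KO at 3 months (-0.57, -0.64 and -0.66). At 9 months the difference, -0.25 ± 0.13, did not pass (adjusted p = 0.428). The age changes of Dok3, -0.31 ± 0.13 in App-KI and 0.14 ± 0.13 in Trem2-KO, did not pass, nor did the difference between them, 0.45 ± 0.19 (adjusted p = 0.704).

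Counted over the 10 members, of which 9 were tested, 2 were lower without Trem2 at 3 months (Trem2 and Dok3), while 0.423% of all 19152 genes tested were called lower. At 9 months 6 were lower (Trem2, Tyrobp, Ptpn6, Inpp5d, Vav1 and Lyn), against 1.39% of all genes. With age 8 rose in App-KI, all tested members but Dok3, against 3.95% of all genes, and the same 8 rose in Trem2-KO, against 5.68%. The age change was smaller in Trem2-KO for 3 members (Trem2, Tyrobp and Inpp5d), against 0.209% of all genes called in that direction. Knockout libraries lay entirely below App-KI libraries for 5 members at 3 months and for 9 at 9 months, against 8.94% and 9.04% of all tested genes. At 3 months they lay entirely above for 1 member, Hcst. Libraries of 9 months lay entirely above those of 3 months for 9 members in App-KI, Hcst among them, and for 8 in Trem2-KO, against 11.2% and 13.5%. In App-KI they lay entirely below for 1 member, Dok3. Hcst was not tested and is outside these shares, and no shares are given here for the opposite directions. The median log2 change of the 9 tested members was -0.33 and -0.60 for genotype at 3 and 9 months and 1.27 and 0.67 for age in App-KI and Trem2-KO, while that of all tested genes lay between -0.001 and 0.007 in each. The comparisons share groups, so their counts are not independent of each other, and Trem2 itself is the gene that was deleted. The meningeal fibroblast score was higher in every Trem2-KO library of 9 months than in any other library. A fit with this score therefore cannot fully separate it from that group. With the score of each library as a covariate, the members called for age in Trem2-KO numbered 0 in place of 8. Those of all genes numbered 102 in place of 1667. In that fit the 8 age changes lay between 0.58 and 0.96, those called for the difference of age changes numbered 1 (Trem2) in place of 3, against 3 in place of 51 over all genes, and Lyn and Vav1 lost their calls at 9 months (-0.42 and -0.43).

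**Figure D2:**
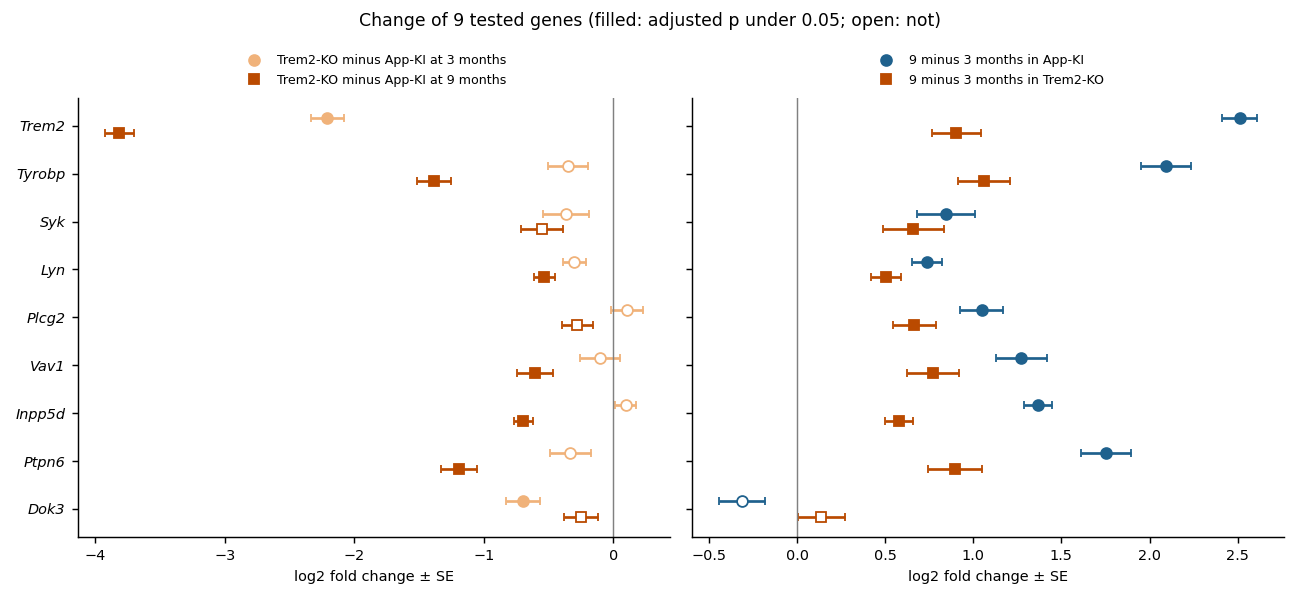
Log2 fold change ± SE (horizontal axes) of the 9 tested genes by genotype at 3 and 9 months (left) and by age in App-KI and Trem2-KO (right), with filled symbols for an adjusted p under 0.05. At 9 months all 9 genes lie on the lower side, from Trem2 at -3.81 to Dok3 at -0.25. This holds on the scale of the whole tissue and changes for some relative to the microglial reference. Every gene but Dok3 has a more positive age change in App-KI than in Trem2-KO.

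The levels per kilobase of transcript rank the members against each other. In App-KI at 9 months Tyrobp had 53.5 ± 3.6 CPM per kilobase (SD, n = 3) and Trem2 48.4 ± 2.7, and these 2 overlapped. Well below them, Ptpn6 (8.32 ± 1.30), Inpp5d (8.02 ± 0.09) and Lyn (7.97 ± 0.09) overlapped with each other. Dok3 (5.90 ± 0.32), Vav1 (4.29 ± 0.28), Plcg2 (2.96 ± 0.11) and Syk (1.42 ± 0.20) followed without overlap between neighbours, and Hcst was last at 0.420 ± 0.107. At 3 months in App-KI the order was Tyrobp (12.5 ± 0.9), Trem2 (8.45 ± 1.06) and then Dok3 (7.35 ± 1.16), and the last 2 overlapped. Lyn (4.78 ± 0.16), Inpp5d (3.11 ± 0.11), Ptpn6 (2.48 ± 0.17), Vav1 (1.79 ± 0.28), Plcg2 (1.43 ± 0.11), Syk (0.784 ± 0.066) and Hcst followed, each separate from the next. For Vav1 and Plcg2 this was barely so, as the lowest library of Vav1 and the highest of Plcg2 were both at 1.527. Between these ages Dok3 moved from rank 3 to rank 6 and Ptpn6 from rank 6 to rank 3. In Trem2-KO at 9 months Tyrobp remained first (20.5 ± 5.1), then Lyn (5.52 ± 0.11), Dok3 (4.97 ± 0.31) and Inpp5d (4.96 ± 0.16), of which the last 2 overlapped. Lengths are those of the longest principal transcript. With the union of all annotated exons, a length chosen as an alternative after the data were seen, Trem2 in App-KI at 9 months came to 10.6 in place of 48.4 and Tyrobp to 45.2 in place of 53.5, since the union for Trem2 includes a long unspliced form.

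Because the microglial markers changed along with the members, each library was also scaled to the mean log2 level of the 20 microglial reference genes (among them C1qb, Ctss, Itgam and Spi1). Of these, 18 rose with age in App-KI, 16 rose in Trem2-KO and 15 were lower without Trem2 at 9 months. Rgs10 and Coro1a, which neurons also express, did not pass in these comparisons. On this scale the median of all tested genes moved to 0.09 and 0.74 for genotype at 3 and 9 months, to -1.31 and -0.67 for age in App-KI and Trem2-KO and to 0.65 for the difference of age changes. The values below are therefore changes relative to other microglial genes and not to the tissue.

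At 9 months Trem2 (-3.09 ± 0.12), Tyrobp (-0.65 ± 0.14, adjusted p = 4.28e-04) and Ptpn6 (-0.46 ± 0.14, adjusted p = 0.00465) were lower without Trem2 relative to the microglial reference in edgeR. These 3 stand against 0.287% of all genes called lower on this scale. Lyn (0.20 ± 0.09), Plcg2 (0.45 ± 0.12) and Dok3 (0.48 ± 0.13) were higher, as were 81.6% of all genes. The call of Lyn was lost without any 1 of the App-KI libraries of 9 months or replicate 1 or 3 of Trem2-KO at 9 months (0.18 to 0.21). Inpp5d (0.04 ± 0.08), Vav1 (0.12 ± 0.14) and Syk (0.18 ± 0.16) did not pass. Of 12 homeostatic microglial genes such as P2ry12 and Tmem119, 8 were themselves lower without Trem2 at 9 months on the tissue scale. Their median was -0.53, against -0.75 for the 20 reference genes. With these 12 genes as the reference, Trem2 (-3.38), Tyrobp (-0.94) and Ptpn6 (-0.76) stayed lower. Under that reference Inpp5d was lower too (-0.26, adjusted p = 0.0193), Lyn turned to -0.10 without a call, and Plcg2 (0.16) and Dok3 (0.19) lost their calls.

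At 3 months Trem2 (-2.12 ± 0.14) and Dok3 (-0.61 ± 0.13, adjusted p = 0.0176 by edgeR) were lower relative to the reference, against 0.298% of all genes. The call of Dok3 was lost without replicate 2 of App-KI or replicate 2 of Trem2-KO at 3 months (-0.47 and -0.58). With age in App-KI, Trem2 (1.20 ± 0.11), Tyrobp (0.78 ± 0.15) and Ptpn6 (0.44 ± 0.14) rose beyond the reference, as did 0.517% of all genes. Syk (-0.47 ± 0.17), Lyn (-0.58 ± 0.09) and Dok3 (-1.63 ± 0.13) fell relative to it, as did 93.1% of all genes. With the homeostatic reference Dok3 still fell (-0.93), while Syk (0.23) and Lyn (0.12) had the other sign. The call of Ptpn6 was lost without replicate 2 of App-KI at 9 months (0.31), and that of Syk without the same library (-0.35) or replicate 1 of App-KI at 3 months (-0.38).

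In Trem2-KO only Tyrobp rose with age beyond the microglial reference (0.39 ± 0.16, adjusted p = 0.0317 by edgeR), against 0.815% of all genes. Its value dropped to 0.15 without replicate 1 of Trem2-KO at 9 months, the highest library, and the call was also lost without replicate 1 or 2 of Trem2-KO at 3 months (0.38 and 0.36). Only Dok3 fell (-0.54 ± 0.13), as did 75% of all genes, and with the homeostatic reference it was not called (-0.19). Under the homeostatic reference more members were called for age in Trem2-KO, and Syk, Lyn, Plcg2 and Inpp5d turned positive, as given below. The residual Trem2 reads, at 0.23 ± 0.15 relative to the microglial reference, did not pass (adjusted p = 0.187). The age change relative to the reference was smaller in Trem2-KO for Trem2 (-0.97 ± 0.18), against 0.136% of all genes. It was more positive for Lyn (0.41 ± 0.12) and Dok3 (1.09 ± 0.19), as for 68.3% of all genes. The differences for Tyrobp (-0.39 ± 0.22) and Inpp5d (-0.15 ± 0.11) did not pass with this reference and did with the homeostatic one (-0.74 and -0.50).

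**Figure D3:**
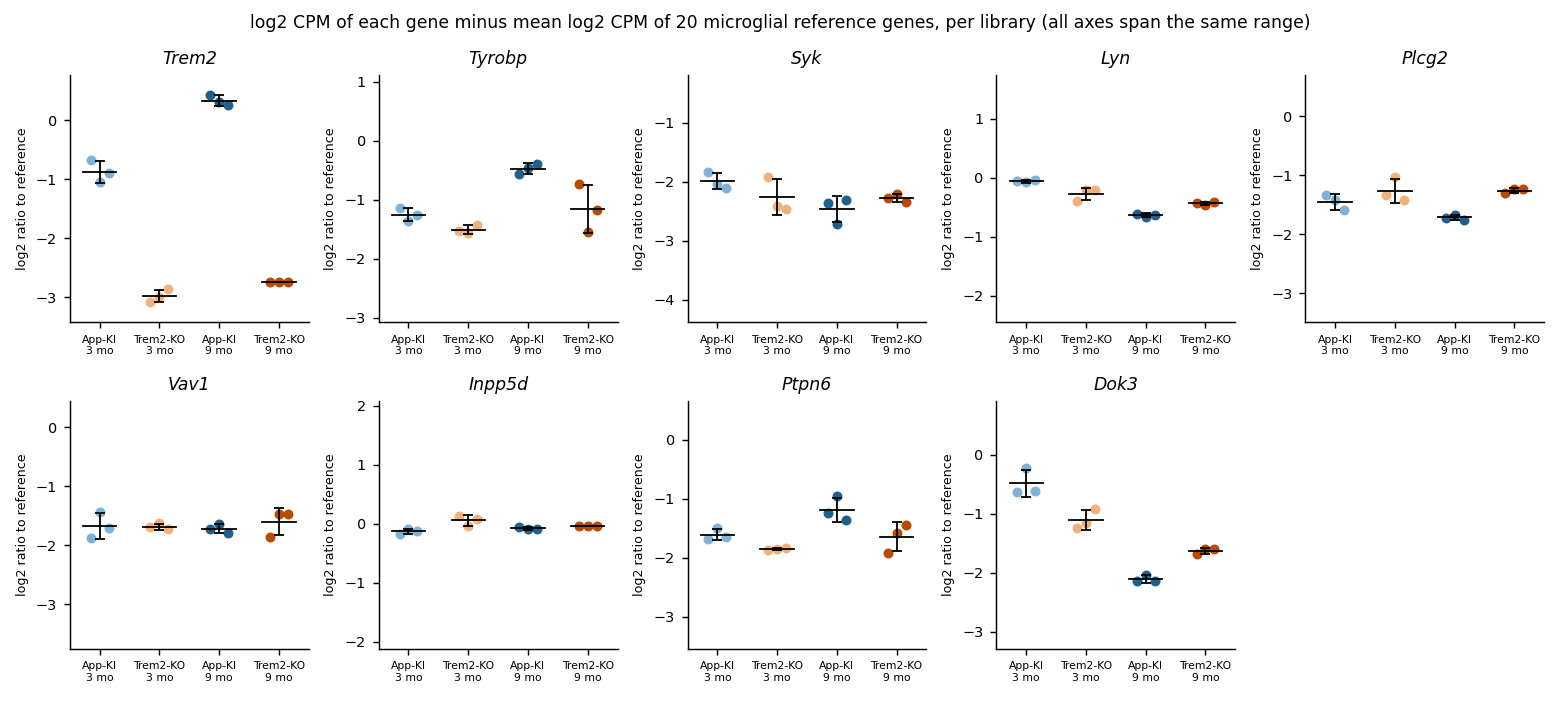
Log2 CPM of each of the 9 tested genes minus the mean log2 CPM of 20 microglial reference genes (vertical axes, all of the same span) in each library (points), with group mean and SD of 3 libraries. Inpp5d stays level with the reference in all 4 groups (-0.17 to 0.14), Trem2 and Tyrobp are highest in App-KI at 9 months, and Dok3 is lowest there (-2.14 to -2.03).

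Across the 12 libraries the log2 levels of the 8 tested members other than Dok3 had Pearson correlations with each other of 0.588 (Trem2 and Plcg2) to 0.974 (Vav1 and Ptpn6). Those of Dok3 with the other 8 ran from -0.136 (Plcg2) to 0.523 (Trem2). The libraries fall into 4 groups that differ in their microglial markers, so these values describe the differences between groups more than the spread within them. Among 14118 genes compared, those most like Tyrobp over the 12 libraries were C1qa (r = 0.983), Fcer1g (0.982), Ccl6 (0.979), Rassf4 (0.977), Lcp1 (0.977), C1qc (0.976), Slco2b1 (0.974) and Ly86 (0.972). Over the 6 App-KI libraries, which form 2 ages, those most like Trem2 were Slc11a1 (r = 0.9995), Gfap (0.999), Cd68 (0.999), Fcgr2b (0.999), Herc6 (0.998), Ephx2 (0.997), Lyz2 (0.997) and Fcrls (0.997). C1qc, Lcp1 and Ly86 also belong to the microglial reference list.

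The other genes of the TREM family were near 0 in every group. Trem1, Trem3, Treml1 and Treml4 had 0 to 6 counts in each library and were not tested. Treml2 had 0 to 3 counts in every library of 3 months, 6 to 12 in App-KI at 9 months and 5 to 7 in Trem2-KO at 9 months, and was not tested either.

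The wider pathway was described by lists of 130 genes, of which 127 were in the table and 101 were tested. At 3 months none of the 101 was called, and at 9 months 0 were higher and 14 lower without Trem2, against 1.39% of all genes called lower. With age 38 rose and 0 fell in App-KI, against 3.95% of all genes that rose, and 27 rose and 3 fell in Trem2-KO, where 5.68% of all genes rose and 3.02% fell. Relative to the microglial reference, at 9 months 77 of the 101 were higher without Trem2 and 2 lower (Fcer1g and Lilrb4a), against 81.6% and 0.287% of all genes. With age on that scale 5 rose and 75 fell in App-KI, against 0.517% and 93.1%, and 7 rose and 59 fell in Trem2-KO, against 0.815% and 75%. The counts in the next paragraphs are on the scale of the whole tissue unless the reference is named. The medians of the 101 were -0.05 and -0.10 for genotype at 3 and 9 months and 0.20 and 0.23 for age in App-KI and Trem2-KO. The 3 that fell, named after their values were seen, were Fyn (-0.19), Prkcb (-0.18) and Gsk3b (-0.18). The age change was smaller in Trem2-KO for 2 of the 101, Csf1r (-0.69 ± 0.08) and C1qa (-0.60 ± 0.11), against 0.209% of all genes. Relative to the microglial reference 0 of the 101 were called in that direction, against 0.136% of all genes. On that scale the age change was more positive in Trem2-KO for 63, against 68.3% of all genes. Many genes of these lists, such as those of the PI3-kinase pathway, are known to be expressed in most cell types and not only in microglia.

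Of receptors that pair with TYROBP or HCST, or signal beside them, 4 of 6 tested were lower at 9 months, against 1.39% of all genes. Relative to the microglial reference none of the 6 was lower and 2 were higher (Siglech, 0.24, and Plxna1, 0.61), while Csf1r (-0.03), Clec5a (0.09) and Oscar (-0.69) did not pass. Csf1r, the receptor for the growth factors CSF1 and IL-34 on which microglia depend, had 247.7 CPM with Trem2 and 146.5 CPM in the knockout (-0.76 ± 0.06, adjusted p = 4.72e-08 by edgeR). Siglech, a sialic acid receptor of microglia, had 39.3 and 27.9 CPM (-0.49 ± 0.09), Clec5a, a myeloid lectin, 8.46 and 5.43 CPM (-0.64 ± 0.15), and Oscar, a collagen receptor, 1.95 and 0.742 CPM (-1.42 ± 0.33). Plxna1, a semaphorin receptor that neurons also express, was not called (-0.12 ± 0.06), and neither was Itgb3, the last of the 6 tested. The 9 others, including Siglec15, Klrk1 and the 3 Sirpb1 genes, were too low to test. Fcer1g, the only other ITAM adaptor tested of 7, had 17.8 CPM with Trem2 and 8.50 CPM in the knockout at 9 months (-1.06 ± 0.13, adjusted p = 4.69e-05), and was lower relative to the reference too (-0.33 ± 0.14, adjusted p = 0.0406).

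Among genes for ligands of TREM2 and for enzymes that process it, Apoe and Clu rose with age in both genotypes. Apoe, a lipoprotein ligand, rose by 0.36 ± 0.05 in App-KI and 0.30 ± 0.05 in Trem2-KO, and Clu, another lipoprotein, by 0.32 ± 0.06 and 0.30 ± 0.06. Neither was called for genotype at 9 months (-0.11 ± 0.05 and -0.06 ± 0.06). The complement gene C1qa, which is also a marker of microglia, was the only called member of the ligand list at 9 months, with 91.1 CPM with Trem2 and 50.3 CPM in the knockout (-0.86 ± 0.07, adjusted p = 3.29e-07 by edgeR). Of 8 genes that shed or cleave TREM2, none was called for genotype. Adam17, a sheddase, rose with age in App-KI (0.34 ± 0.08), and Adam10, another sheddase (0.10 ± 0.05), was not called. The change of Adam17 in Trem2-KO, 0.22 ± 0.08, did not pass, and the difference between its age changes, -0.12 ± 0.11, did not either.

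Inside the cell, 2 of 18 adaptor and calcium genes were lower at 9 months, where 1.39% of all genes were: Lat2, an adaptor of myeloid cells (-1.11 ± 0.20), and Blnk, which links SYK to phospholipase C (-0.64 ± 0.13). Among exchange factors and their partners 3 of 9 were lower, the Rac activator Dock2 (-0.77 ± 0.13), Nckap1l, a part of the actin regulating WAVE complex of blood cells (-0.78 ± 0.10), and Rasgrp3, an activator of Ras (-0.48 ± 0.11), while Rac1 was not called (-0.06 ± 0.05). Only Pik3ap1, an adaptor of PI3-kinase, was lower among 17 genes of PI3-kinase, Akt and mTOR (-0.51 ± 0.13). None of 10 other ITAM kinases was called for genotype, with Fyn, which neurons express, at 0.02 ± 0.05 at 9 months. Of 21 other inhibitors 2 were lower, Lilrb4a, an inhibitory receptor (-1.49 ± 0.24), with 4.39 CPM with Trem2 and 1.55 CPM in the knockout, and Sirpa, the receptor of the CD47 signal (-0.22 ± 0.05). None of 5 tested Ms4a genes, whose human locus is linked to soluble TREM2, was called for genotype. Relative to the microglial reference, where 81.6% of all genes were higher at 9 months, 13 of the 18 adaptor and calcium genes, 5 of the 9 exchange factors and partners, 15 of the 17 PI3-kinase genes, 7 of the 10 kinases, 17 of the 21 inhibitors and all 5 Ms4a genes were higher. Of these lists, only that of the inhibitors had a lower gene on that scale, Lilrb4a (-0.76 ± 0.25).

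**Figure D4:**
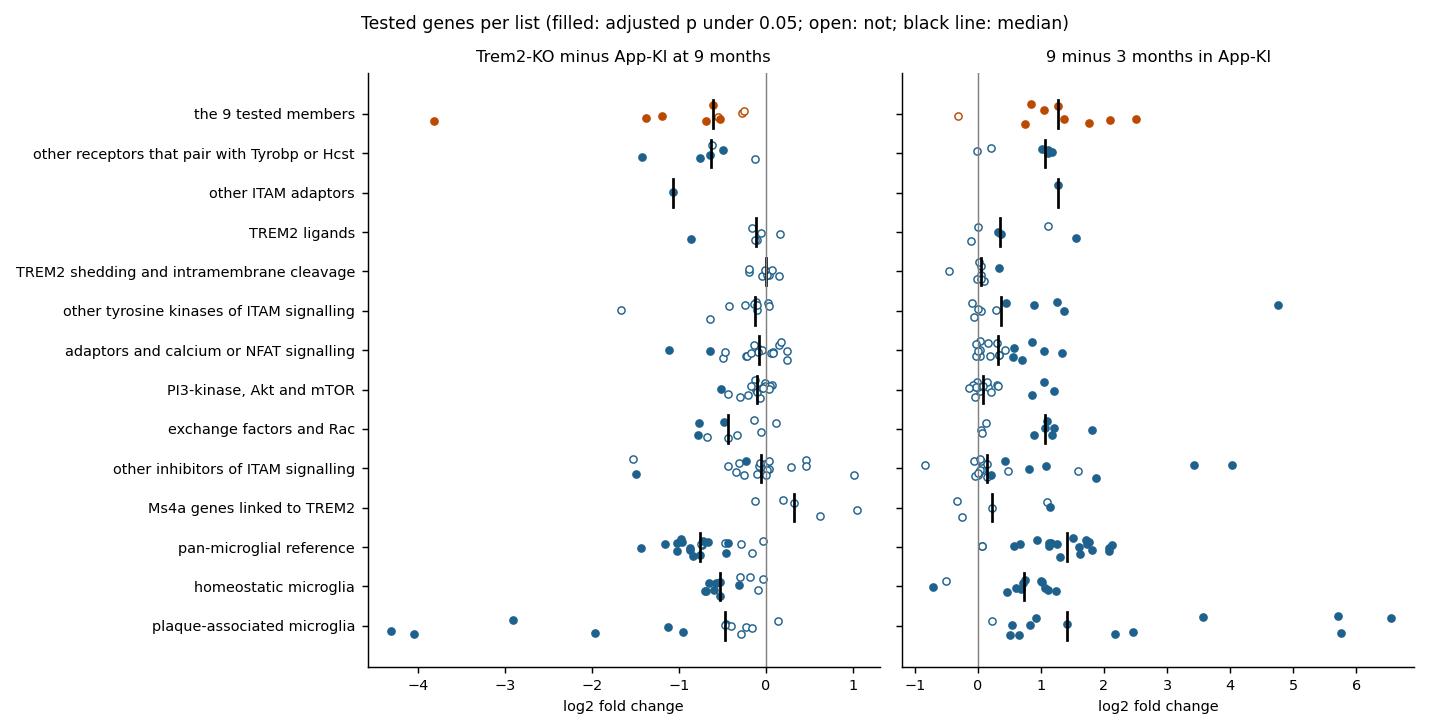
Log2 fold change (horizontal axes) of each tested gene by list (vertical axis) for genotype at 9 months (left) and age in App-KI (right), with filled points for an adjusted p under 0.05 and a black line at each list's median. The 9 members have medians of -0.60 and 1.27, and called genes of the pathway lists lie on the lower side on the left and on the higher side on the right, while relative to the microglial reference, not drawn, 77 of the 101 were called higher in the first comparison and 75 lower in the second.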

How the data were processed

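RNA was extracted with a column kit and made into libraries with the SMART-Seq mRNA LP kit, per the labels' protocols. The authors deposited raw read counts per gene, per the values of the table; the submitters' processing notes list, with no role, the build GRCm39 and the tools DESeq2 1.36.0, R 4.2.0, featureCounts 2.0.3 and STAR 2.7.10a. The sources used here give neither strand nor annotation release nor the handling of shared reads. Symbols came from GENCODE M21 (GRCm38), which matched 52073 identifiers, and the rest held at most 0.252% of a library's reads.

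Genes were kept by filterByExpr (minimum count 10, minimum total 15), libraries were scaled by TMM, and edgeR 4.0.16 (R 4.3.3) tested 5 comparisons by its robust quasi-likelihood F-test over all 12 libraries (8 residual degrees of freedom), with Benjamini-Hochberg adjustment over 19152 genes and calls at an adjusted p under 0.05. The fit was tested on simulated data. CPM use the scaled library sizes. In the fits relative to microglia the reference level is taken as known, so their errors leave out its uncertainty. Replicates are separate mouse identifiers, numbered in accession order. Alternatives used limma 3.58.1 and DESeq2 1.42.0. The members, the lists and the rule for named genes (all members, up to 4 called genes with the smallest p and 2 abundant uncalled ones per list, and 8 genes of similar pattern) were chosen with earlier results of these data known. Single genes of the lists that the rule would name are in part not reported here.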

Additional observations from a re-analysis of the deposited data

Results flagged for a closer look

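For 3 members the change with age differed between genotypes by a test of the difference itself (edgeR, adjusted over all genes). The age change in Trem2-KO minus that in App-KI, on the log2 scale, was -1.61 for Trem2, whose reads in the knockout are residual, -1.03 for Tyrobp and -0.79 for Inpp5d. With the meningeal score as a covariate, which was highest in Trem2-KO at 9 months, Trem2 kept its call (-1.75), and Tyrobp (-1.36) and Inpp5d (-0.78) did not. The call of Tyrobp was also lost in limma-voom and in 8 of the 12 fits that left out 1 library. Relative to the microglial reference genes, of which 10 of 20 were themselves called in the same direction, the value was -0.97 for Trem2 and passed. Those of Tyrobp (-0.39) and Inpp5d (-0.15) did not pass. With the homeostatic reference the differences of Tyrobp and Inpp5d did pass, as given above, so this outcome depends on the reference chosen.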

How the results depend on the processing

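No paired analysis was possible because the labels give mouse identifiers and no numbers shared between groups. Size factors of the RLE type, no low-count filter, DESeq2, limma-voom, fits of 2 groups and a choroid plexus score, run on the values not scaled to a reference, kept the counts of members called within 1.5 times. The difference of age changes has no fit of 2 groups. With the meningeal score, members called numbered 0 for age in Trem2-KO (8 as reported) and 1 for the difference of age changes (3 as reported). With the homeostatic reference, 6 were called for age in Trem2-KO (2 as reported). The share of all genes called under that reference is not given here, so these counts cannot be set against it. Over all genes, counts as reported were 113 at 3 months, 398 at 9 months, 1276 and 1667 for age and 51 for the difference. They became 347, 831 and 187 (3 and 9 months and difference) without a filter, 264 and 102 (3 months and difference) in DESeq2, 218 at 3 months in 2 groups, 183 and 83 (3 months and difference) with the choroid score, and 44, 102 and 3 (9 months, age in Trem2-KO and difference) with the meningeal score.

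Under the homeostatic reference these values changed sign: Vav1 at 3 months (0.038); Syk (-0.11), Lyn (-0.10), Vav1 (-0.18) and Inpp5d (-0.26) at 9 months; Syk (0.23), Lyn (0.12), Plcg2 (0.43) and Vav1 (0.66) for age in App-KI. So did Syk (0.34), Lyn (0.18), Plcg2 (0.34) and Inpp5d (0.26) for age in Trem2-KO and Plcg2 (-0.091) and Vav1 (-0.21) for the difference. On the tissue scale the 12 homeostatic genes had median age changes of 0.72 in App-KI and 0.45 in Trem2-KO. Those of the 20 reference genes were 1.41 and 0.75. With a summed reference Inpp5d for age in App-KI became -0.034. The cause was not tested.

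Leaving out 1 library at a time, members called ranged from 1 to 2 at 3 months, from 1 to 2 there relative to the reference, and from 1 to 2 for age in Trem2-KO relative to the reference. For age in App-KI relative to the reference they ranged from 4 to 7 (6 as reported). The other ranges were 5 to 6 at 9 months on both scales and 7 to 8 for age in Trem2-KO. They were 2 to 3 for the difference and 3 to 4 for it relative to the reference, while age in App-KI gave 8 in every fit. Uncalled values crossed 0 for Plcg2 (-0.018 to 0.18) and Vav1 (-0.21 to 0.0085) at 3 months. Relative to the reference they did so for Vav1 at 3 months (-0.11 to 0.11) and for age in App-KI (-0.14 to 0.080), and for Syk (-0.11 to 0.16) and Plcg2 (-0.090 to 0.12) for age in Trem2-KO. No called member changed sign in these fits. Over all genes on the tissue scale the calls ranged from 26 to 154 and 175 to 556 for genotype at 3 and 9 months. They ranged from 788 to 1523 and 769 to 1920 for age in App-KI and Trem2-KO, and from 29 to 76 for the difference. Relative to the reference, calls over all genes ranged from 73 to 835 and 14715 to 15752 for genotype at 3 and 9 months. On that scale they were 17504 to 18252 and 13708 to 14556 for age in App-KI and Trem2-KO, and 12404 to 13068 for the difference. Depth limits Hcst and the other TREM genes, at 0 to 12 counts per library.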
